A study of Mus musculus with 7 samples.

Results

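Most regions that carried an H3K27-Ac peak in these skin tumour cells were found in a single clone. The 3 peak lists, one per clone, merged into 56903 regions on chromosomes 1 to 19, of which 33522 (58.9%) were overlapped by the list of exactly 1 clone. These single-clone regions were chosen by the peak calls themselves: peaks were merged where they shared at least 1 bp, and a merged region was kept when 1 list and no other overlapped it. Clone 1 contributed 3015 of them, clone 2 contributed 25011 and clone 3 contributed 5496. A further 7919 regions lay in exactly 2 lists and 15462 in all 3. Because the lists chose the members, the values below describe them and no test was made on their selection.

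The study asked which 129P2 loci drive skin tumours in Cdkn2ab-/- mice, which lack p15Ink4b, p16Ink4a and p19Arf. All libraries came from tumour cell clones of a backcross between FVB and 129P2 (numbered 1, 2 and 3 in the labels) that shared this genotype, and no treated or wild-type clone was among them. Each line is 1 clone picked from soft agar, and the age of the mice is not given in the sources used here. There were 4 H3K27-Ac libraries, 1 each of clones 1 and 2 and 2 of clone 3, which were pooled in 1 list, and 3 IgG control libraries, of clones 1 and 3. With 1 list per clone and 1 condition, nothing could be tested between groups, and the spread is given over the 3 clones.

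Acetylation of lysine 27 on histone H3 is laid down by the acetyltransferases p300 and CBP and marks nucleosomes beside promoters and distal enhancers that are in use. Promoters of housekeeping genes carry it in most cell types, whereas distal elements carry it in few, so that a list of distal sites tends to reflect the identity of a cell. In skin, keratinocytes of the basal layer and the outer root sheath use keratin, desmosome and Trp63 programmes, and dermal fibroblasts use collagen and Snail-family programmes. In ChIP-seq an antibody against the mark brings down DNA fragments, and a peak is a stretch where their pileup exceeds a local background. The fold enrichment of a peak is the pileup at its summit divided by that background. It was ranked within a list only, because fold is not comparable between lists of unknown depth.

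The sequences under a few of these regions are given as examples. They are the 300 bases around the summit, plus strand of GRCm38, of the strongest regions with a window free of exons (1 of clone 1, 2 of clone 2 and 1 of clone 3), and of regions near *Tspan18*, *Col3a1* and *Snai2*, which were picked after their values were seen. Each CG dinucleotide stands in capitals.
Clone 1, intergenic, chr6:4417460-4417759: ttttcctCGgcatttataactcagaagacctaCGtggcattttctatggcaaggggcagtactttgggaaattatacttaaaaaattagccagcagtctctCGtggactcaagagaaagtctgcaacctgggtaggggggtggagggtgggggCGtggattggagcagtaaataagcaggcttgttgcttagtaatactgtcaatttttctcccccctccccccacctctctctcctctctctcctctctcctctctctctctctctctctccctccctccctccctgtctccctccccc
Clone 1, within 1 kb of the Tspan18 start, chr2:93333918-93334217: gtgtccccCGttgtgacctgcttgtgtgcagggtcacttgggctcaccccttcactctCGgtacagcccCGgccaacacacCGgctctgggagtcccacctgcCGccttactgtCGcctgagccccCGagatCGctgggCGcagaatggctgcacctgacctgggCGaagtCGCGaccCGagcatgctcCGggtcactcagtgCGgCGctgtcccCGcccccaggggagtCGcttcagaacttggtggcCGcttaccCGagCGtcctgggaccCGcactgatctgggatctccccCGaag
Clone 2, intron of Traf3ip2, chr10:39625290-39625589: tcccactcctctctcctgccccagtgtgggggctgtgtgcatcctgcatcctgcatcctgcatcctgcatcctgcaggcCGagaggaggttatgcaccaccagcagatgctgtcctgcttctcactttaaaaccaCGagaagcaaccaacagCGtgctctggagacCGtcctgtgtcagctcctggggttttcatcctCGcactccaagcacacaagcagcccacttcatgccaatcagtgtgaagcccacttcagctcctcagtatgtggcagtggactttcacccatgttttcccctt
Clone 2, intron of Tmem44, chr16:30527985-30528284: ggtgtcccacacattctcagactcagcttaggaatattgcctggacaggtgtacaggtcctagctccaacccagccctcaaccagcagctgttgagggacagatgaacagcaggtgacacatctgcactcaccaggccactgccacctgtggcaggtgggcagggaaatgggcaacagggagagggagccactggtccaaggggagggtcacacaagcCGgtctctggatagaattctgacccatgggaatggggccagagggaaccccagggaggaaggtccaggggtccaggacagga
Clone 3, intron of Shisal2a, chr4:108380545-108380844: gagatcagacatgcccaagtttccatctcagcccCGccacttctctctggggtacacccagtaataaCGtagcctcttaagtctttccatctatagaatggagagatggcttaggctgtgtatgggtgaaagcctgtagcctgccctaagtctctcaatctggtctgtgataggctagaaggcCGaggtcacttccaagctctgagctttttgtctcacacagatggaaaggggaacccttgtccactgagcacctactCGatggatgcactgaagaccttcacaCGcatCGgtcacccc
Clone 3, upstream of Col3a1, chr1:45299334-45299633: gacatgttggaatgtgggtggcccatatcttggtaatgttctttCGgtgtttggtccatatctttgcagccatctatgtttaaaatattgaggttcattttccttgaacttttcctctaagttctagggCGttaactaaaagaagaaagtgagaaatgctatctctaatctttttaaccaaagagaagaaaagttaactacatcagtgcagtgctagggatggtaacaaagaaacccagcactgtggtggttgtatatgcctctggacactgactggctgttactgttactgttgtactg
Clone 3, upstream of Snai2, chr16:14703411-14703710: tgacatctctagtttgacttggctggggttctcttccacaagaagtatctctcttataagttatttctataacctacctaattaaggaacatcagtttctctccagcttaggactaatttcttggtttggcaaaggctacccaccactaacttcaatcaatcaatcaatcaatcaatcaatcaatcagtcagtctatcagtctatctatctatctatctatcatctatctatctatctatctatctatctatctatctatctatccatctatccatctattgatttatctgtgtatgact
The strongest windows of clones 1 and 3 held 51.3% G or C each, and the 2 of clone 2 held 56.0% and 59.0%. Those near *Col3a1* and *Snai2* held 39.7% and 34.3%, with 2 and 0 CG dinucleotides. The window at the start of *Tspan18* held 67.0% and 23 CG dinucleotides. These 3 regions were picked by gene and do not stand for their clones, whose medians over all windows are given with the GC values. The window near *Snai2* and the strongest of clone 1 hold runs of short tandem repeats. How uniquely reads mapped there was not measured.

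The share of a clone's list that no other clone had differed widely. It was 10.5% of 28641 peaks in clone 1, 51.1% of 48925 peaks in clone 2 and 19.1% of 28798 peaks in clone 3. In bases the shares were smaller, 4.58%, 29.9% and 11.2%, since the single-clone peaks were short. Clone 2 supplied most members, and any count over all 3 clones mainly describes its list. When each list was cut to its 28641 most significant peaks, the single-clone regions numbered 3988, 8754 and 6177, 18919 in all. Without the list of clone 2, 16246 regions were found in only 1 of the other 2 lists.

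Single-clone peaks were narrow and weak. Their median width was 341 bp in clone 1, 378 bp in clone 2 and 435 bp in clone 3, against 902, 1158 and 856 bp for the peaks of the same lists that lay in regions of all 3. At like fold the gap was smaller. Within the lowest quartile of fold of each list the medians were 294, 304 and 357 bp, against 348, 317 and 410 bp. In quartile 3 they were 621, 581 and 690 bp, against 879.5, 771 and 860 bp. The shortest members measured 225, 237 and 260 bp. The deposited values allowed whole ChIP reads at the summit to be recovered for 98.5% to 99.7% of peaks, and the single-clone peaks rested on a median of 22, 25 and 40 reads, against 56, 123 and 64 reads for peaks in all 3 lists. The weakest members had 13, 13 and 25 reads. Sites below about these numbers are not listed, so that a region missing from a list may still carry the mark at a level below the threshold of that list.

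Ranked by fold enrichment within its list, a member was most often in the lowest quartile. This quartile held 58.3% of the members of clone 1, 39.5% of those of clone 2 and 45% of those of clone 3, a mean of 47.6% ± 9.69 (SD, n = 3 clones), against 12.9% ± 4.68 for peaks in all 3 lists. Read from the list instead, 80.6% of the lowest quartile of clone 2 was found in no other clone, and still 46.5% of the quartile below the highest. In clone 1 these shares were 24.6% and 2.85%, and in clone 3 they were 34.4% and 12.7%. The highest quartile held 6 members in clone 1, 314 in clone 2 and 140 in clone 3. Among members with a −log10 q of at least 5, only 4.36% remained in the lowest quartile, which follows from the threshold.

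**Figure D1:**
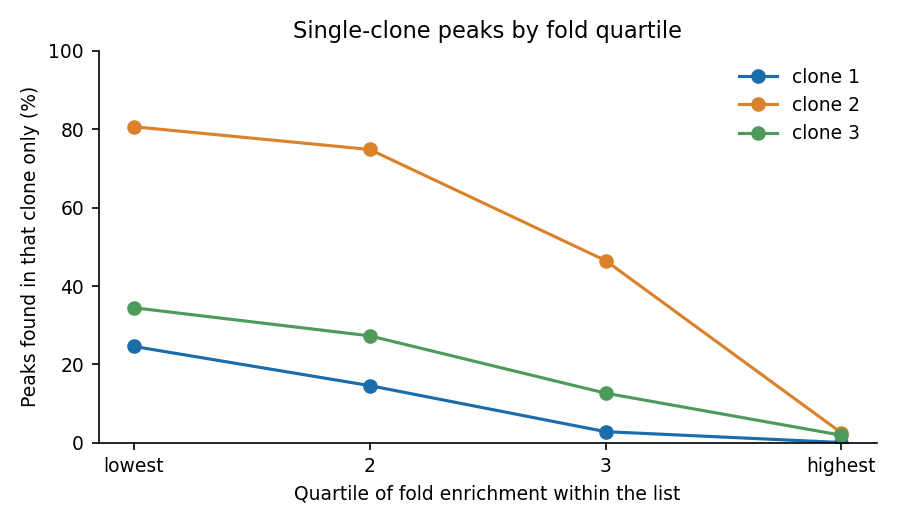
Share of the peaks of each list that were found in that clone only (y axis, percent), by quartile of fold enrichment within the list (x axis), with 1 line per clone. The share falls with fold in every clone, and runs between 80.6% and 2.57% in clone 2 and between 24.6% and 0.0838% in clone 1.

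Many members of clone 1, and fewer of clones 2 and 3, lay beside a peak of another clone without touching it. Under 1 kb away were 50.0%, 16.3% and 26.5% of the members of clones 1, 2 and 3. The median distance to the nearest peak of another list was 0.996 kb for clone 1, 6.63 kb for clone 2 and 8.15 kb for clone 3. A gap under 100 bp was found for 302, 450 and 226 members. These members just inside the rule had a median fold of 4.95, 5.54 and 4.13, and the peaks just outside it, which shared under 100 bp with 1 other list, had 4.89, 5.60 and 4.04. At the other end, 181 members of clone 1 (6.0%), 1854 of clone 2 (7.41%) and 1108 of clone 3 (20.2%) lay over 50 kb from any peak of another clone.

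Promoters were rare among the members. A start of a protein-coding transcript lay within 1 kb of 6.57% of the members of clone 1, 10.9% of those of clone 2 and 2.84% of those of clone 3, whereas 54.4%, 52.9% and 57.3% of the peaks in all 3 lists were at such a promoter. The mean over clones was 6.76% ± 4.03 against 54.9% ± 2.24 (SD, n = 3 clones), and the ranges of the 3 clones did not overlap. Left without the list of clone 2, the share was 18.5% in clone 1 and 7.33% in clone 3, a mean of 12.9%. Where a shared region needed summits within 250 bp, it was 19.6%, 12.3% and 19.6% in clones 1, 2 and 3, so that clone 2 went from the highest share to the lowest. Within the lowest fold quartile of each list, promoters made up 7.17%, 8.61% and 3.03% of members, against 23.7%, 9.57% and 37.4% of shared peaks. In clone 2, quartiles 2 and 3 gave 10.2% and 14.9% against 8.62% and 17.4%, and the highest gave 30.3% against 77.5%. This highest quartile held 61.4% of the shared peaks of clone 2 and 1.26% of its members. Introns held 52.9%, 50.7% and 47.4% of the members and 23.8%, 24.7% and 22.4% of the shared peaks. Intergenic sites made up 37.0%, 22.2% and 47.4% of the members against 19.5%, 20.1% and 18.2%. Of the 3 classes the intergenic share varied most between clones, with a mean of 35.5% ± 12.7. In clone 2 it was close to that of shared peaks over the whole list, but not within fold quartiles. In quartiles 1 to 3 of clone 2 it was 19.3%, 22.2% and 26.9%, against 38.7%, 36.1% and 32.2% of shared peaks. In the highest quartile it was 26.8% against 11.1%.

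Exons set clone 2 apart. Outside promoters, 18.2% of its members had their midpoint in an exon of a protein-coding gene, a class that held 3.73% of those of clone 1 and 2.45% of those of clone 3. For peaks in all 3 lists this share was 4.92%, 4.94% and 4.86%. In numbers, 4058 exonic regions were found in clone 2 only, 105 in clone 1 only and 131 in clone 3 only. Of all members, promoters included, 16.2% were exonic in clone 2, against 3.48% and 2.38% in clones 1 and 3. With lists of equal length, 12.2% of all members of clone 2 were still exonic, against 3.64% and 2.48%.

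**Figure D2:**
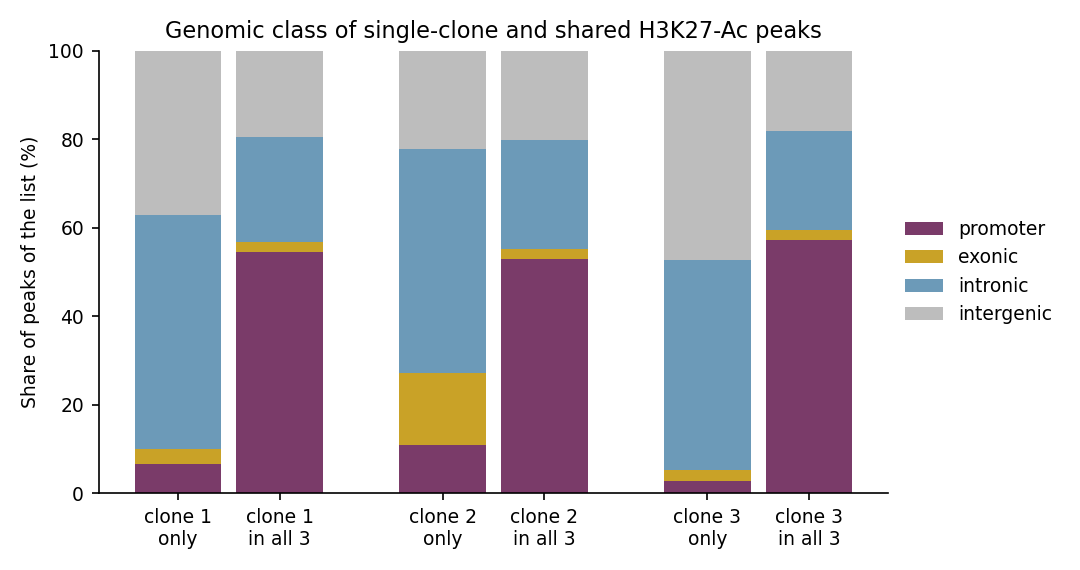
Share of peaks (y axis, percent) at promoters, in exons, in introns and between genes, for the single-clone peaks of each clone and for the peaks of the same list that lie in regions of all 3 lists. Promoters make up 2.84% to 10.9% of single-clone peaks and 52.9% to 57.3% of shared peaks, and the exonic band is wide in clone 2 only, at 16.2%.

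The members of the 3 clones differed in base composition. In the 300 bp around the summit, non-promoter members held a median of 46.3% G or C in clone 1 (quartiles 42.7% and 49.0%), 56.3% in clone 2 (53.7% and 58.7%) and 43.3% in clone 3 (39.7% and 46.7%). The lower quartile of clone 2 lay above the upper quartile of either other clone. At shared regions the same lists gave 50.7%, 53.0% and 50.3%, and chromosomes 1 to 19 as a whole hold 41.9%. Members at promoters showed the same order, with 47.3%, 60% and 43.8%, below the 66.0%, 67.7% and 64.7% of shared promoter peaks. The medians were 46.3%, 55.7% and 43.3% in intergenic members alone, so that the order was the same away from genes.

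A difference of the same kind was present at regions the rule did not select. Among the non-promoter regions of all 3 lists, 661 held under 45% G or C, and their median fold stood at the 28.7th percentile of shared regions in clone 1, at the 7.94th in clone 2 and at the 46.6th in clone 3. In the 190 regions with 60% or more, the medians stood at percentiles 36.4, 51.9 and 35.2. Across all 5 bins the fold of clone 2 ranked higher with each step in GC content, and that of clone 3 was lowest in the middle bin, at percentile 29.0. Peaks shared by clones 1 and 3 but missing in clone 2 had a median of 44.3% and 43.7% G or C at the summits of the 2 lists. The lists also differed in other ways: peak names of clones 1 and 2 carry a mark of a filter against allelic mapping bias, that of clone 3 pools 2 libraries, and the labels give no IgG library of clone 2. With 1 list per clone these cannot be told apart from the cells, and the part of GC content in the counts of clone 2 was not tested.

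**Figure D3:**
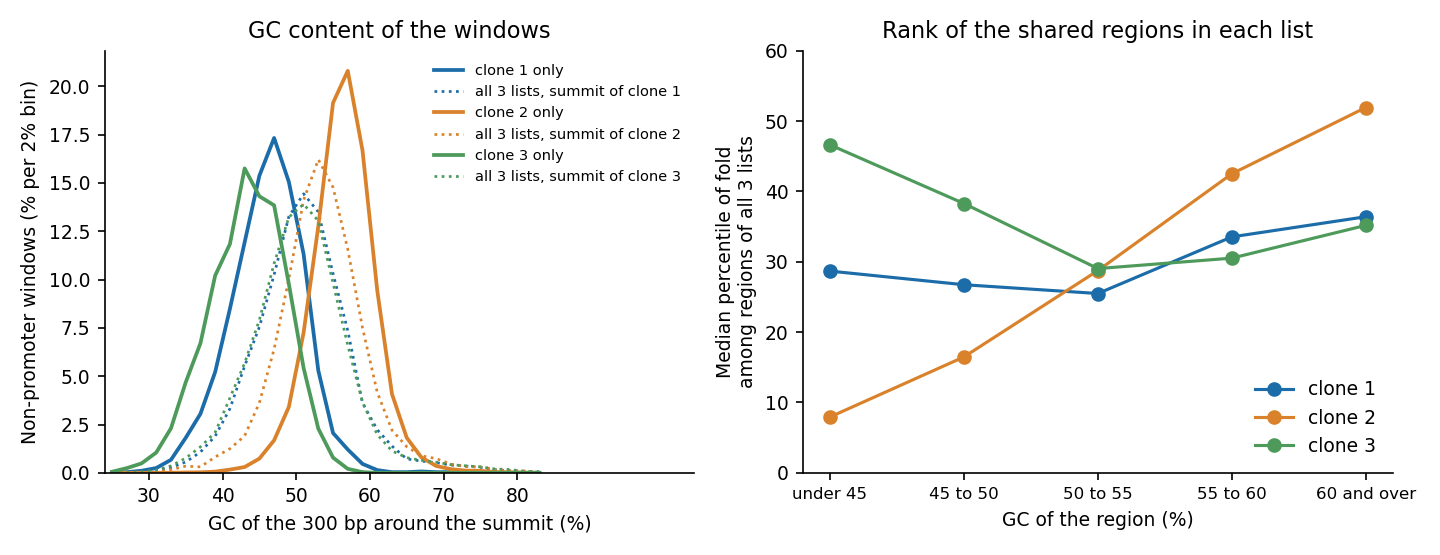
Left, GC content of the 300 bp around the summit (x axis, percent) against the share of non-promoter windows (y axis, percent per bin of 2%) for single-clone regions (solid) and for regions of all 3 lists at the summit of each clone (dotted). Right, median percentile of fold enrichment among regions of all 3 lists (y axis) by GC content of the region (x axis), where clone 2 starts at 7.94 and ends at 51.9, and clone 3 starts at 46.6 and ends at 35.2.

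Genes with many such regions nearby were common for clone 2 and rare for the other clones. Of 20807 protein-coding genes, 4668 (22.4%) had 5 or more single-clone regions of any clone within 50 kb of their start, while 7593 had none. Counted for 1 clone at a time, 5 or more were found near 33 genes (0.159%) for clone 1, near 3945 genes (19%) for clone 2 and near 35 genes (0.168%) for clone 3. Just outside the threshold, 1298 genes had 4 regions of any clone, and 929 just inside had 5. With lists of equal length the counts per clone were 62, 751 and 51 genes, and without clone 2 only 1097 genes had 5 or more. At least 1 region within 50 kb was found for 12.1%, 56.9% and 15.8% of genes in clones 1, 2 and 3.

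Genes rich in regions of clone 2 lay in dense parts of the genome. They had a median of 3 other protein-coding starts within 50 kb and spanned a median of 13.7 kb, against 2 other starts and 17.6 kb over all genes. The 33 genes of clone 1 had 1 other start and spanned 39.8 kb, and the 35 genes of clone 3 had 2 and spanned 38.2 kb. An own promoter peak was present in the same clone for 84.8%, 82.2% and 68.6% of these genes, against 50.2%, 57.2% and 48.6% of all genes. For the genes of clone 1 the share was 72.7% in clone 2 and 66.7% in clone 3. For those of clone 2 it was 71.2% in clone 1 and 66.6% in clone 3. Those of clone 3 had 54.3% in clone 1 and 57.1% in clone 2. Promoter peaks in all 3 lists were present for 66.7%, 65.6% and 48.6%, against 47.1% of all genes. A member at the promoter counted both in choosing a gene and in the share of its own clone.

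In clone 1 the tetraspanin gene *Tspan18* led with 9 regions. They lay along its first 50 kb, with folds of 4.57 to 8.33 and 20 to 35 reads, and no region of 2 or 3 lists and none of another clone lay within 50 kb of its start. A run of 14 consecutive members of clone 1, the longest of this clone, covered the gene at chr2:93217454-93334397, and clone 1 alone had a peak at its start. *Tmed10*, a cargo receptor of the early secretory pathway, had 8 regions, which included the 7 of the mitotic kinase gene *Nek9* beside it. *Adamtsl4*, which encodes a secreted matrix protein, had 8 regions, but also 14 regions of all 3 lists around it. *N4bp1*, *Tns3*, a tensin of focal adhesions, and *Fam169b* had 7 each.

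Epithelial genes were among those with several regions of clone 1. *Pkp1*, which encodes the desmosome protein plakophilin 1, had 7 regions, of which the one at its start, chr1:135918437-135919487, was 11.1-fold with 59 reads, and the other 6, all intronic, were 3.89 to 7.53-fold. Around *Krt14*, the type I keratin of basal keratinocytes, 6 members followed each other at chr11:100198440-100222610, with no region of 2 or 3 lists and 1 region of clone 2 within 50 kb. The strongest covered the start of *Krt14* over 1161 bp with a fold of 9.89 and 42 reads. *Krt5*, its partner keratin, had no region within 50 kb in any list, and neither had *Dsp*. A further run of 6 members lay in *Eya2* at chr2:165595188-165635195.

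Clone 2 formed long blocks in gene-dense stretches. Around *Gpx4*, the peroxidase that clears lipid hydroperoxides, 36 members of clone 2 lay within 50 kb on chromosome 10, 13 of them exonic and 16 intronic, with folds of 3.33 to 11.6. *Sbno2*, with 34, and *Polr2e*, a subunit of RNA polymerase II, with 31, lie next to it and shared most of these regions. On chromosome 12, *Siva1* had 36 and *Adssl1* 34, again in 1 block, with up to 18.7-fold and 93 reads. *Tex22* had 33, the neurexophilin gene *Nxph4* 32 and *Piezo1*, a mechanosensitive channel, 30. Clones 1 and 3 had no member of their own around these 8 genes apart from 1 region of clone 3 near *Tex22*. The longest run of the series, 39 consecutive members, crossed *Trrap* and *Smurf1* at chr5:144774292-144896912, and one of 36 crossed *Wipi2*, *Slc29a4* and *Tnrc18* at chr5:142639929-142793735.

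In clone 3 the endocytic gene *Ehd4* had 8 regions, all intronic, of which the strongest at chr2:120131257-120131999 had a fold of 8.30 and 65 reads. The RNA-binding protein gene *Mex3b* had 7, all intergenic, up to 7.48-fold. Collagen III, *Col3a1*, had 6 regions with 30 to 51 reads, including one of 1165 bp at its start (chr1:45311680-45312844, 5.74-fold), and no other clone had a peak at that start. *Dpysl3* and *Hacd4* also had 6. *Ifi203*, *Ifi211* and *Mndal*, interferon-inducible genes of 1 family on chromosome 1, shared the same 6 regions, of 3.10 to 7.45-fold. They are related genes whose reads could in part be shared, which was not measured here.

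**Figure D4:**
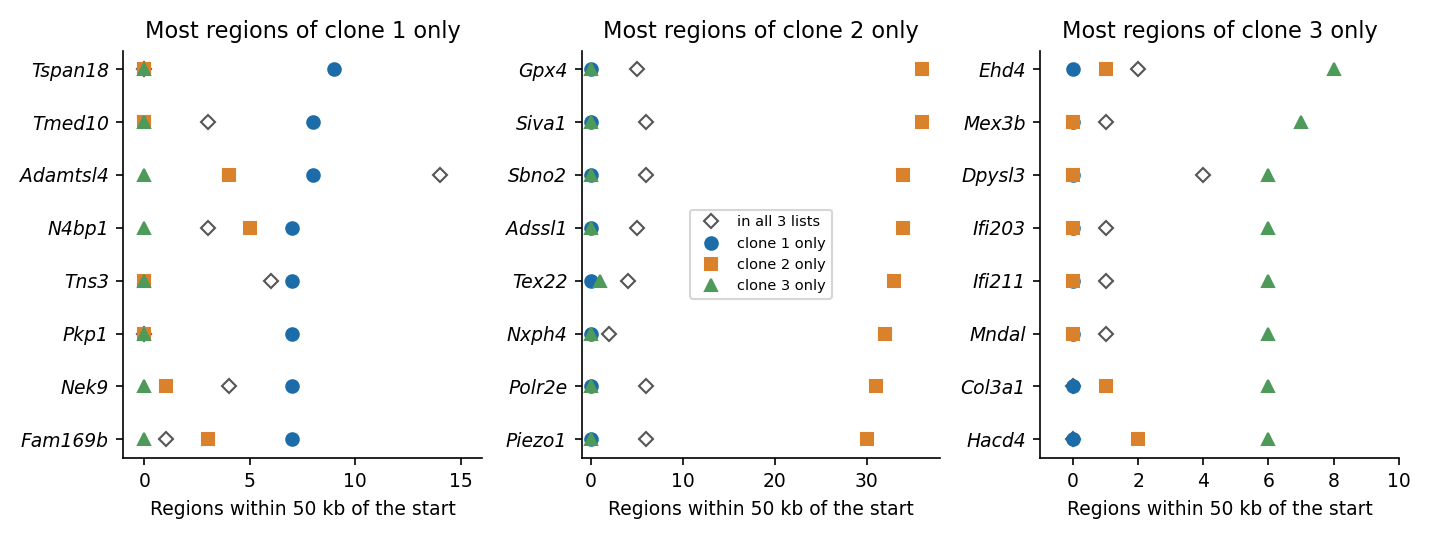
Number of regions within 50 kb of the start (x axis) for the 8 genes with the most single-clone regions of clone 1 (left), clone 2 (middle) and clone 3 (right). Filled symbols count regions of 1 clone, with the clone given by shape and colour, and open diamonds count regions of all 3 lists. The leading genes have 7 to 9 regions in clone 1, 30 to 36 in clone 2 and 6 to 8 in clone 3.

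Runs in clone 3 were sparse and wide. Its longest, 10 consecutive members, stretched over 1508 kb at chr13:26217523-27725815 across *Hdgfl1* and the prolactin gene family, and the next, 9 members, over 1547 kb at chr8:6781298-8328681, 289 kb from the nearest gene, *Efnb2*. The run of 14 in *Tspan18* spanned 117 kb and the run of 39 at *Trrap* 123 kb. A second run of clone 1 held 8 members over 147 kb at chr12:106920880-107067388, 421 kb from *3110018I06Rik*. Of all members, 65.5% of clone 1, 21.9% of clone 2 and 49.6% of clone 3 had a region of another kind on both sides.

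The strongest members stood high in clones 2 and 3 and lower in clone 1. In clone 3 an intronic region of *Shisal2a*, chr4:108379389-108381476, reached 16.1-fold with 129 reads, above 97.3% of its list, followed by one in an intron of *Lysmd4* and *Mef2a* at 14.1-fold. Intergenic regions near *Cnksr3* (13.5-fold over 3830 bp) and *Ppm1a* (13.04-fold) and an intronic one of *Mast4* (11.8-fold) came next. In clone 2 an intergenic region at chr18:5186183-5187019, 148 kb from the start of *Zfp438*, had 42.7-fold and 187 reads, and one in *Traf3ip2*, an adaptor of interleukin 17 receptors, had 39.9-fold and 184 reads. Regions in *Ubr4*, whose nearest start is that of *Iffo2*, in *Get4* and at the start of *Csmd1* followed at 35.7, 34.7 and 34.7-fold. In clone 1 the highest was an intergenic site, chr6:4417357-4418410, 87.2 kb from the start of *Col1a2*, with 18.3-fold and 70 reads, which exceeded 80.1% of its list. The others were 18.1-fold in the run near *3110018I06Rik*, 17.8-fold 34.2 kb from *Bmp6*, 16.3-fold in *Ttc7b* and 16.1-fold near *Map4k3*.

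Promoters with a member were few in clones 1 and 3. A region of clone 1 only lay within 1 kb of a start of 185 genes (0.889%), one of clone 2 only of 2266 genes (10.9%) and one of clone 3 only of 151 genes (0.726%). No other list had a peak at any start of the gene for 31 of the 185 genes of clone 1, 1256 of the 2266 of clone 2 and 40 of the 151 of clone 3. These were 16.8%, 55.4% and 26.5% of the genes, so that most such genes of clones 1 and 3 had a promoter peak in another list too, and most of those of clone 2 had none. All starts of a gene were counted, so that the other peak may lie at a different start than the member. In the same clone, 144, 999 and 97 of these genes also had a promoter peak that was shared with another list.

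The cell type markers were checked against the lists. Of 22 genes of dermal fibroblasts and mesenchyme, 12 had a promoter peak in all 3 lists and 3 in none, while of 22 genes of keratinocytes and follicle epithelium 3 had one in all lists and 14 in none. Over all protein-coding genes, 47.1% had a promoter peak in all 3 lists, so that the mesenchymal count was not far from this share. None of the 8 endothelial markers had a promoter peak. The labels name tumour cells of the skin, and in all 3 lists most defining markers of keratinocytes, *Krt5*, *Trp63*, *Dsp* and *Cdh1* among them, had no peak at their start. Promoters of 5, 6 and 3 epithelial genes were marked in clones 1, 2 and 3, and those of 17, 18 and 13 mesenchymal genes. Over all protein-coding genes the shares were 50.2%, 57.2% and 48.6%. *Sfn*, *Krt15* and *Lama3* were marked at the start by a member of clone 2 and *Krt14* and *Pkp1* by members of clone 1.

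Around the epithelial genes, 15 separate regions of clone 1 lay near 5 of 22 genes (22.7%, background 12.1%), 13 of them near *Krt14* and *Pkp1*. Members of clone 2 lay near 9 genes (40.9%, background 56.9%), with 12 near *Itgb4*, the hemidesmosome integrin. Clone 3 had 6 members near 6 genes (27.3%, background 15.8%), 1 each at *Itga6*, *Krt17*, *Lama3*, *Sfn*, *Sox9* and *Trp63*, with folds of 3.72 to 5.01. Around the mesenchymal genes the counts were 7, 13 and 8 genes (31.8%, 59.1% and 36.4%), again beside backgrounds of 12.1%, 56.9% and 15.8%. *Col3a1*, the small proteoglycan genes *Dcn* and *Lum*, *Prrx1*, *Vim* and *Snai2*, a repressor of epithelial genes, had regions of clone 3 and none of clone 1. The region of *Snai2*, chr16:14703026-14703940, had a fold of 9.91 with 79 reads, in the top quartile of its list, 2.29 kb from the start. Its summit window holds runs of short tandem repeats, as printed above. *Col1a1*, *Col1a2*, *Col5a1*, *Snai1* and *Fn1* had regions of clone 1 and none of clone 3, of which those of *Col1a1* rested on 15 or 16 reads. *Col5a1*, *Snai1* and *Fn1* had 1 region of clone 1 each, with 21, 16 and 18 reads. Clone 2 had 3, 14, 17 and 7 regions near *Col1a1*, *Col5a1*, *Snai1* and *Fn1*, and none near *Col1a2*.

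Cytokine and chemokine genes had members of clone 3 most often of the 14 lists. Regions of clone 3 lay near 13 of the 24 genes (54.2%, background 15.8%), against 5 genes for clone 1 (20.8%, background 12.1%) and 15 for clone 2 (62.5%, background 56.9%). Since *Ccl2* and *Ccl7*, *Cxcl1* and *Cxcl2*, and *Il1a* and *Il1b* are neighbours, the 33 counted regions of clone 3 were 25 separate ones. *Tslp*, an epithelial cytokine, had 4, of which the strongest was 9.03-fold with 87 reads at 41.5 kb from the start. *Ccl20*, a chemokine for dendritic cells and T cells, had 4 as well, up to 7.96-fold with 83 reads, and its promoter was marked in no list. The interleukin 1 genes had 4 (*Il1a*) and 3 (*Il1b*) regions, all of them intergenic, and no promoter peak in any list. Apart from 2 regions of *Tslp* and 1 of *Ccl20*, those of this list had folds of 2.85 to 5.88. One at *Ccl2* (3.42-fold) and one at *Il33* (3.24-fold) lay within 1 kb of a start. Clone 2 had a peak at a start of *Ccl2* too.

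**Figure D5:**
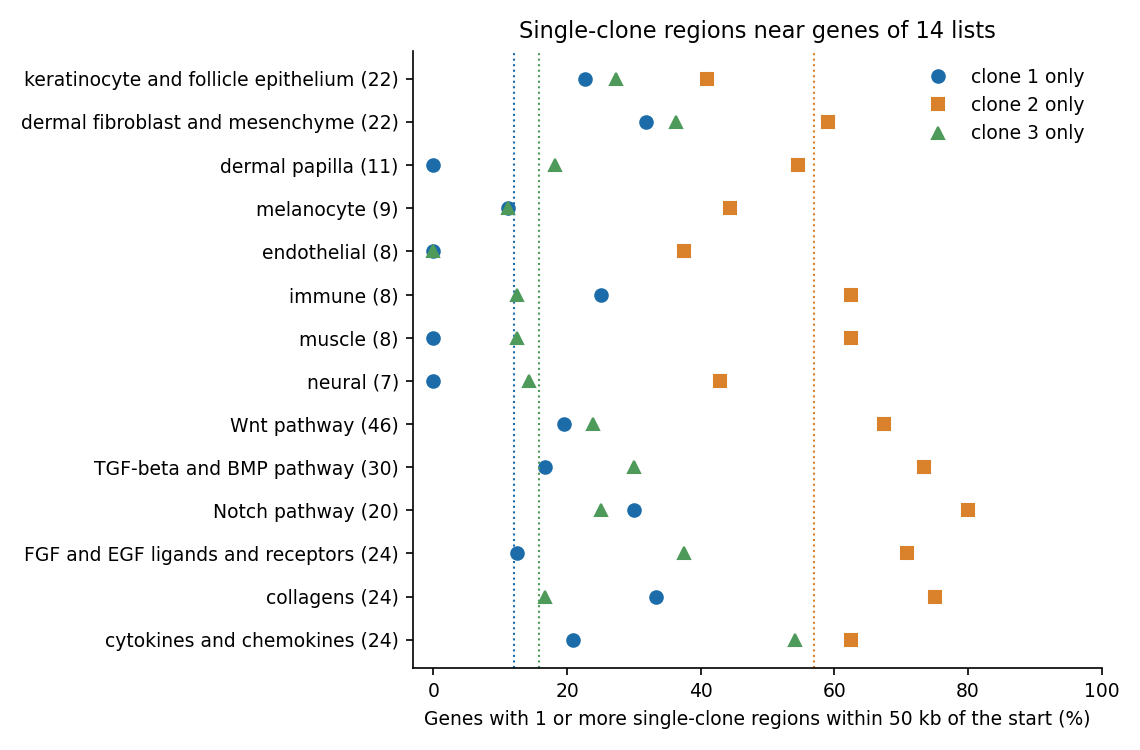
Share of the genes of 14 lists (y axis, number of genes found in brackets) with at least 1 single-clone region of each clone within 50 kb of the start (x axis, percent). Dotted lines mark the share of all protein-coding genes, 12.1% for clone 1, 56.9% for clone 2 and 15.8% for clone 3. The cytokine and chemokine list lies farthest from the line of clone 3, at 54.2%.

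Genes of the Wnt pathway, on which hair follicle cells depend, had members of clone 1 near 9 of 46 genes (19.6%), of clone 2 near 31 (67.4%) and of clone 3 near 11 (23.9%), beside backgrounds of 12.1%, 56.9% and 15.8%. None had 5 or more regions of clone 1 or 3. The gene of the ligand *Wnt5a* had 2 of clone 1, of which the stronger was 12.7-fold with 48 reads, 28.8 kb from the start. The ligand genes *Wnt9a* (20.6-fold, 94 reads) and *Wnt10a* (14.1-fold, 55 reads), the agonist gene *Rspo2* (19.5-fold, 106 reads) and the antagonist gene *Sfrp1* (16.7-fold, 92 reads) had regions of clone 2 only within 1 kb of a start, which for *Wnt10a* lies downstream of the gene's 5′ end. *Wnt7b*, the ligand gene in the locus under study, had 8 regions of clone 2 only within 50 kb, none of clones 1 or 3, 1 region of 2 lists and 2 regions of all 3 lists. The upstream enhancer region that the study reported for this gene lies outside this window. The region of clone 2 at chr15:85580862-85581339, 5.69-fold with 27 reads, was classed as promoter by another transcript start, and its summit lay 1.46 kb from the 5′ end of the gene. *Ctnnb1*, which encodes β-catenin, the effector of the pathway, had 3 regions of clone 1, of 4.10 to 6.45-fold. In clone 3 the R-spondin receptor gene *Lgr4* and the co-receptor gene *Lrp6* had 3 regions each, up to 8.11-fold and 5.17-fold.

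In the other signalling lists, too, members of clone 2 lay near more genes than those of clones 1 and 3, against 12.1%, 56.9% and 15.8% of all genes for clones 1, 2 and 3. TGF-beta and BMP genes had members of clones 1, 2 and 3 near 5, 22 and 9 of 30 genes (16.7%, 73.3% and 30%). The antagonist gene *Nog* and the activin subunit gene *Inhba* had members of clone 1 at a start, with 19 reads each. All 3 lists had a peak at a start of *Inhba*, whereas *Nog* had one in clone 1 alone. Notch genes had members of clones 1, 2 and 3 near 6, 16 and 5 of 20 genes (30%, 80% and 25.0%). Here clone 2 was dense, with 22 regions around *Notch1*, 18 around the ligand gene *Jag2* and 12 around *Lfng*. Of 24 FGF and EGF ligand and receptor genes, 3, 17 and 9 had members (12.5%, 70.8% and 37.5%). The ligand gene *Btc* carried a region of clone 2 only at its start with 19.1-fold and 87 reads, and *Areg* one of clone 3 with 2.95-fold and 35 reads. All 3 lists had a peak at a start of *Areg*, whereas *Btc* had one in clone 2 alone. Collagen genes had members near 8, 18 and 4 of 24 (33.3%, 75% and 16.7%). *Col6a2* had 4 of clone 1, and *Col5a1* and *Col16a1* had 14 and 16 of clone 2.

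Genes of other cell types had few members of clones 1 and 3, on short lists read against 12.1% and 15.8% of all genes. No gene of the dermal papilla, endothelial, muscle and neural lists had a member of clone 1, and 2 of 11 (18.2%), 0 of 8, 1 of 8 (12.5%) and 1 of 7 (14.3%) had one of clone 3. For melanocytes 1 of 9 genes had members of clone 1 and 1 of clone 3, *Mitf* in both cases. For immune cells 2 of 8 genes (25.0%) had members of clone 1, a larger share than over all genes, and 1 of clone 3. Members of clone 2 were found near 6 of 11 dermal papilla, 4 of 9 melanocyte, 3 of 8 endothelial, 5 of 8 immune, 5 of 8 muscle and 3 of 7 neural genes, beside a background of 56.9%. Among the immune genes, *Spi1*, the transcription factor PU.1 of myeloid cells, had 12, with one of 12.9-fold and 58 reads at its start, and *Cd74* had 19.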

How the data were processed

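H3K27-Ac ChIP-seq was made from 3 *Cdkn2ab*-/- skin tumour cell clones, with 1 list of narrow peaks deposited per clone. Per the submitters' processing notes and the study's methods, the authors used Bowtie2 for alignment (GRCm38) and MACS2 2.1.1 for the peaks, pooling 2 libraries of clone 3. The deposited columns hold the fold enrichment at the summit, a ratio to the local background, and −log10 p and −log10 q values. Total reads per library are not in these lists, so the depth is unknown. The IgG libraries had no list analysed here.

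Peaks of chromosomes 1 to 19 were merged at 1 bp of overlap with pandas 2.3.3 and numpy 2.4.6 under Python 3.11.15, and plots were drawn with matplotlib 3.10.9. Each peak was classed in the order promoter (within 1 kb of a protein-coding transcript start of the GENCODE GRCm38 annotation), exonic, intronic and intergenic, the latter 3 by its midpoint. Genes were given the regions within 50 kb of their 5′ end. Whole reads at the summit were recovered from fold and p, with a tolerance of 0.0012 reads. The steps were tested on simulated data.

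The genes named per clone are the 8 with most regions, the nearest genes of the 5 strongest regions, genes of 14 lists with a region at a start, and genes at the longest runs. Others, *Krt14*, *Krt5*, *Dsp*, *Eya2*, *Snai2* and further list members among them, were picked after their values were seen. The members and lists were chosen with earlier results of these data known. No test was made, since there was 1 condition and regions of a clone are not replicates. Sequences of chromosome 18 are not printed.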

Additional observations from a re-analysis of the deposited data

How the results depend on the processing

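No paired analysis was possible because the results come from no test and the lists share 1 condition. The 3 lists hold no total read numbers, and a site under a list's threshold is not listed, so absence from a list is set by that threshold. Requiring a −log10 q of at least 5 in every list gave 20730 single-clone regions (mean of the clones' median widths 537 bp, 2365 genes with 5 or more). Requiring it of the member alone gave 16421 regions (intronic 47.3%, width 513 bp, lowest quartile 4.36%, 1791 genes). With 28641 peaks per list there were 18919 regions (width 444 bp) and 1541 genes, with 62 genes in place of 33 for clone 1 and 751 in place of 3945 for clone 2. Where summits within 250 bp were needed to share a region, the promoter share was 17.2% and the intronic share 45.5%. The promoter share was 13.6% with starts within 2.5 kb, 2.47% where the region had to cover the start and 14.5% with the starts of all genes. The mean width was 467 bp. The gene count was 2043 within 25 kb, 7586 for 3 or more regions and 1583 for 10 or more. Leaving out 1 clone at a time gave 16246 to 37373 regions, promoter shares of 7.99% to 12.9%, intronic shares of 45.9% to 51.3%, widths of 380.5 to 433 bp and 1097 to 5239 genes, with the lowest counts without clone 2. The counts per clone with lists of equal length, and GC content under 5 alternatives, were added after seeing the data, and the median GC content ranged over 45.7% to 47.0% for clone 1, 55.7% to 56.7% for clone 2 and 43.0% to 44.0% for clone 3. The cause of these shifts was not tested. In all, 59 of the recomputed values moved by less than the spread between clones, or less than 1.5 times for counts, and 27 moved more.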

Other observations

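Short sequence motifs of transcription factors were counted in the 300 bp windows of non-promoter peaks, on both strands. The AP-1 motif (TGANTCA) was found in 8.59%, 9.61% and 12% of the single-clone windows of clones 1, 2 and 3 and in 9.30%, 14% and 10.9% of the windows of shared regions. The SP/KLF motif (GGGCGGG), rich in G and C, was found in 1.85%, 6.60% and 0.805% against 5.86%, 7.63% and 5.42%. The TCF/LEF motif (CTTTGAT), rich in A and T and bound by partners of β-catenin, was found in 4.44%, 2.64% and 6.16% against 4.52%, 3.64% and 3.95%. It was not counted within bins of GC content, which differed between the clones. Within bins of GC content, AP-1 in clone 2 was found in 11.7% of single-clone and 15.5% of shared windows with 50% to 55% G or C, in 9.44% and 14.6% with 55% to 60%, and in 6.19% and 8.28% above. In each of these 3 bins the share was lower in the single-clone windows. It was also lower below 40% and with 45% to 50%. With 40% to 45% it was higher, at 14.02% of 164 single-clone and 8.85% of 407 shared windows. Clone 3 was higher with 45% to 50% (12.82% against 10.98%). Clones 1 and 3 were higher with 55% to 60%, on 68 and 29 single-clone windows. Both were lower in their other bins, apart from the highest of clone 3, which held no single-clone window.

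Repeat-masked bases took up a mean of 19.8%, 11.4% and 18.9% of the single-clone windows of clones 1 to 3, and 14.2%, 12.1% and 13.7% of the shared ones. Chromosome 1 held 9.63% of the regions of clone 3 only, 5.24% of those of clone 1 only, 4.61% of those of clone 2 only and 5.56% of the regions in all 3 lists.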
